A study of Mus musculus with 2 samples.

Results

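The nuclear genes of the mitochondrial respiratory chain were examined for KAT8 peaks in mouse macrophages. Members were taken by gene symbol alone, with no use of peak values, from the RefSeq annotation of GRCm38.p6, the assembly that mm10 names. A gene was a member if it was nuclear and protein-coding and its symbol began with Nduf, Uqcr, Cox4 to Cox8 or Atp5, or was Sdha, Sdhb, Sdhc, Sdhd or Cyc1. This gave 97 of 21887 nuclear protein-coding genes. They comprised 41 genes of complex I, 4 of complex II, 9 of complex III, 18 of complex IV, 17 of complex V and 8 complex I assembly factors (Ndufaf genes), which were counted apart from the 89 subunit genes.

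The respiratory chain passes electrons from NADH and succinate through complexes I to IV to oxygen, and complex V, the ATP synthase, uses the resulting proton gradient to make ATP. Most subunits are encoded in the nucleus, and the few encoded in mitochondrial DNA are not covered here. Promoters of the nuclear genes are known for binding sites of NRF1, of ETS-family factors such as GABP, and of SP1 and YY1. KAT8, also called MOF, is a histone acetyltransferase of the MSL and NSL complexes. Macrophages are known to shift their use of the respiratory chain when Toll-like receptors are engaged.

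The assay was CUT&Tag for KAT8, where an antibody brings a transposase to its target and nearby DNA is cut. The cells were wild-type primary macrophages grown from bone marrow in 20 ng/ml M-CSF. One group was untreated and the other was given R848, a TLR7 agonist, at 100 ng/ml for 2 h, with 1 library per group. The labels used here do not say whether animals were pooled, and with 1 library each no difference between the groups has a replicate check or a p-value. The untreated list held 52001 peaks and the R848 list 44772. Read totals were not used here. The lowest background at the members' peaks, solved from the deposited fold and p-value, was 3.37 overlapping fragments without and 2.62 with R848. By this measure the R848 library was the shallower, if each list came from its own library alone. Both lists reach down to a −log10 p of 2.01, and 36.3% and 41.1% of the peaks passed a q-value of 0.05. Signal too weak to be called in 1 list is not shown to be absent there, and folds of the lists are set side by side as descriptions, not as a change. No control or accessibility library was analysed, so KAT8 binding and cutting of open chromatin cannot be told apart. Of 12 macrophage markers, 5 had a gene-end peak untreated and 6 with R848, among them Cebpb and Cd68 in both lists and Spi1 in the untreated list only, while Csf1r, Adgre1 and Itgam had none. Of 16 markers of other blood and stromal cells, Siglech had one in the untreated list and Cd3d in the R848 list. Over all protein-coding genes 28.8% had such a peak untreated and 24.4% with R848.

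A gene-end peak means that at least 1 base of a peak fell no more than 1000 bp from the start or the end of the annotated gene. By this count 38 of the 97 members had a peak in the untreated list (39.2%, 95% exact binomial interval 29.4 to 49.6), where 28.8% of all protein-coding genes had one. In the R848 list 29 members had a peak (29.9%, 21.0 to 40.0), where the share of all genes was 24.4%. The share of members was thus above that of all genes in the untreated list and close to it in the R848 list, where the interval holds the value of all genes. Under some other rules the members' untreated share was not above that of all genes. Anywhere in the gene or within 1000 bp, 46 of the 97 members had an untreated peak, close to the 49.1% of all genes. With peaks at no other protein-coding gene, 16 of the 97 did, against 20.6%. Members were shorter (median 7177 bp against 17169 bp over all genes). Another protein-coding gene's end lay within 1000 bp of 56.7% of members and 24.8% of all genes. The part of length and neighbours in these counts was not tested. The intervals given cover counting error over genes only and say nothing of the spread between cultures. Peaks in both lists were found at 22 members (17.3% of all genes), in the untreated list only at 16 (11.5% of all genes) and in the R848 list only at 7 (7.11% of all genes). At the remaining 52 members neither list held a gene-end peak. The 22 members in both lists made up 57.9% of members with an untreated peak and 75.9% of members with an R848 peak. Over all genes these shares were 60.2% and 70.9%. At 21 of the 22 members the peaks of the lists overlapped by at least 1 bp, as they did at 16.2% of all genes. The exception was Ndufv1, whose peaks lay at opposite ends of the gene. At the overlapping members the highest summits of the lists lay a median of 71 bp apart.

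**Figure D1:**
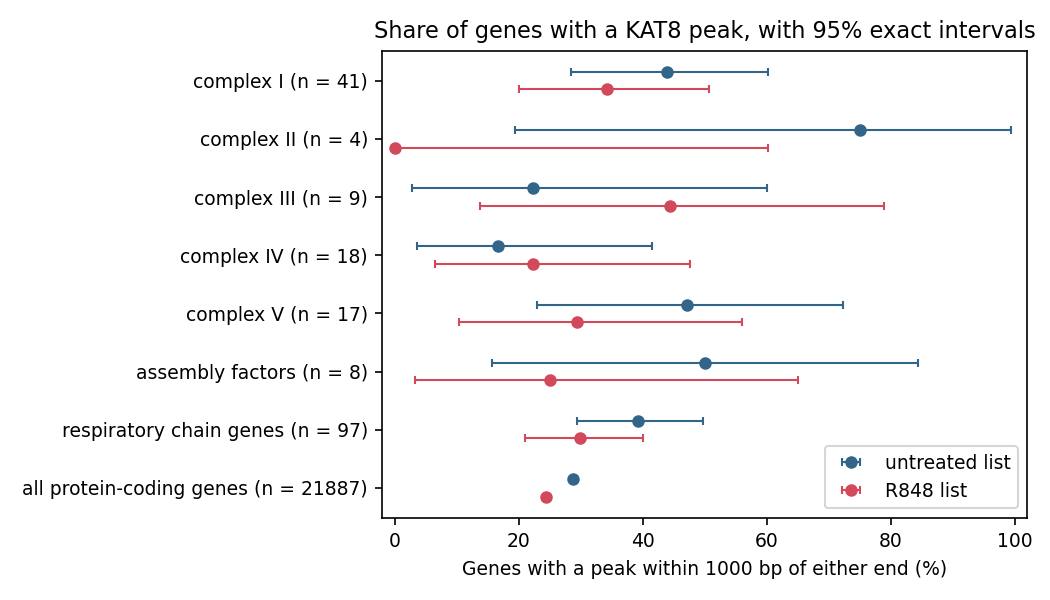
Percent of genes with a KAT8 peak within 1000 bp of either end (x axis), for each complex, the Ndufaf assembly factors, all 97 members and all 21887 protein-coding genes; points are the untreated (blue) and R848 (red) lists and bars are 95% exact binomial intervals. The intervals of the complexes overlap one another in both lists, and complex II has 3 of 4 genes in the untreated list and 0 of 4 in the R848 list.

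Peaks were unevenly spread over the complexes, within wide intervals. Of 41 complex I genes, 18 had an untreated peak (43.9%, 28.5 to 60.3) and 14 an R848 peak (34.1%, 20.1 to 50.6), with 11 in both. Complex II had 3 of 4 untreated and 0 with R848, where the interval reaches 60.2%. Complex III had 2 of 9 (22.2%, 2.8 to 60.01) and 4 of 9 (44.4%, 13.7 to 78.8), with 2 in both. Complex IV had the lowest share in the untreated list, 3 of 18 (16.7%, 3.6 to 41.4), with 4 of 18 (22.2%, 6.4 to 47.6) in the R848 list and 3 in both. Complex V had 8 of 17 (47.1%, 23.0 to 72.2) and 5 of 17 (29.4%, 10.3 to 56.0), and all 5 were also in the untreated list. The assembly factors had 4 of 8 (15.7 to 84.3) and 2 of 8 (25.0%, 3.2 to 65.1), with 1 in both. In either list 40 of the 89 subunit genes and 5 of the 8 assembly factors had a peak, against 35.9% of all genes. With so few genes per complex no order among the complexes can be read from these shares.

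Among the members with peaks in both lists, 4 promoters are shown to let the sequence under the peaks be seen, 1 each from complexes I, IV, III and V. For each complex the promoter is that of the member with the highest fold that has overlapping peaks (Atp5b and Atp5md have equal folds, and the first by name was taken), an entry in the RefSeq promoter table (GRCm38.p6) and at least 60 bases before the start that lie in no annotated gene. Complex II had no member in both lists, and the only such assembly factor, Ndufaf3, had 47 free bases. Each run is the strand of the gene, 5′ to 3′, and ends at the base before the annotated start. Capitals mark matches to the ETS motif CCGGAAG or the SP1 motif GGGCGG on either strand.
Ndufa4: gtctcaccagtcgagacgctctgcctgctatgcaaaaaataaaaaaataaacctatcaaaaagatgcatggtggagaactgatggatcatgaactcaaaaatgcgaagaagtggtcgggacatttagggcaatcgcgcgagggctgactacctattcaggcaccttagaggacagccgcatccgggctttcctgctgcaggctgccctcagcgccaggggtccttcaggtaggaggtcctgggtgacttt
Cox8a: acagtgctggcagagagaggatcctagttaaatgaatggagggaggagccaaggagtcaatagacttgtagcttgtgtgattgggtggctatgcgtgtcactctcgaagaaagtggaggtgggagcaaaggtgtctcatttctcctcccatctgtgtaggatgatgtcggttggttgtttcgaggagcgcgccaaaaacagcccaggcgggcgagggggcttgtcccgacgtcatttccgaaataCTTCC
Uqcrh: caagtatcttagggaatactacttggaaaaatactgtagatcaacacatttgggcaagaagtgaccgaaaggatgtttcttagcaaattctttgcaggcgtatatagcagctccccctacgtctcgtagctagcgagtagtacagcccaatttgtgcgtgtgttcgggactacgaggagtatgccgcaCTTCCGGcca
Atp5b: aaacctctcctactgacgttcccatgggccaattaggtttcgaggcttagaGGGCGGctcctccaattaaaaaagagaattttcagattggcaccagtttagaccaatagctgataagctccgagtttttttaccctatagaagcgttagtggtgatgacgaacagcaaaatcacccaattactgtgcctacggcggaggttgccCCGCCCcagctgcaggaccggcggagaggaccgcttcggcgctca

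The Ndufa4 run (chr6:11907451-11907700, minus strand) lay wholly inside the untreated peak, and 243 of its 250 bases lay inside the R848 peak. It holds 10 CpG dinucleotides and none of the motifs searched. The Cox8a run (chr19:7217617-7217866, minus strand) was covered over 250 bases by the untreated and 195 bases by the R848 peak, and an ETS match begins at position −5 (counted backwards from the start) and runs past the start. In Uqcrh (chr4:116075071-116075268, minus strand), 143 and 114 of 198 bases lay in the highest peaks, and an ETS match begins at position −10. In Atp5b (chr10:128083057-128083306, plus strand), 241 and 200 of 250 bases lay in the peaks, and SP1 matches begin at positions −199 and −45. A match is a description of the letters and not a bound site.

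Ndufa4, counted in complex I by its symbol, had the highest fold of all members in the untreated list (6.64, −log10 q 13.0, 28 overlapping fragments at the summit, chr6:11907255-11908007) and 4.97 in the R848 list (−log10 q 5.55, 17 fragments, chr6:11907458-11907949). Its untreated peak stood at percentile 94.8 of the highest gene-end peaks of that list and its R848 peak at percentile 85.7 of its own. The product of Ndufa4, first described in complex I, is now placed in complex IV. With Ndufa4 moved there, complex I had 17 and 13 of 40 genes with a peak and complex IV 4 and 5 of 19. Ndufv3, an accessory subunit of the NADH-oxidising arm, had the highest fold of all members in the R848 list (5.80, −log10 q 8.05, 20 fragments, chr17:31519869-31520360) and 5.26 in the untreated list (−log10 q 7.80, 22 fragments, chr17:31519726-31520364). Its summits lay 4 bp before and 59 bp after the 5′ end.

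The 7 core subunits of complex I are the catalytic ones that carry the flavin, the iron-sulphur clusters and the quinone site. Of these, 3 had an untreated (42.9%, 9.90 to 81.6) and 5 an R848 peak (71.4%, 29.0 to 96.3). Over all genes the shares were 28.8% and 24.4%. Ndufv2, which binds an iron-sulphur cluster next to the flavin, had 4.81 in the untreated (−log10 q 6.25, 20 fragments) and 4.42 in the R848 list (−log10 q 4.04, 15 fragments), with summits 9 bp before and 59 bp after the 5′ end. Ndufs8, an iron-sulphur subunit, had 4.05 (−log10 q 5.51, 23 fragments) and 3.05 (−log10 q 1.36, 12 fragments) at its 5′ end. A second untreated peak at Ndufs8, of fold 3.54 and 1232 bp wide, reached the window at its 3′ end and also lay at the end of Tcirg1. Ndufv1, which holds the flavin and binds NADH, had an untreated peak of fold 2.52 (−log10 q 0.462, 10 fragments) with its summit 500 bp from its 3′ end, which also lay at the end of Doc2g. Its R848 peak, of fold 4.14 (−log10 q 3.34, 14 fragments, chr19:4012659-4012916), had its summit 44 bp before the 5′ end, and no untreated peak overlapped it. Ndufs7 (3.75, −log10 q 2.71, chr10:80249153-80249824), an iron-sulphur subunit next to the quinone site, had a gene-end peak with R848 only. Ndufs1 and Ndufs3 had none.

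Of the 34 other complex I genes, 15 had an untreated and 9 an R848 peak, with 8 in both. The shares of all genes were 28.8%, 24.4% and 17.3%. Besides Ndufa4 and Ndufv3 the 8 were Ndufb1 (fold 3.66 untreated and 4.14 R848), Ndufa6, a LYR-motif subunit (3.89 and 3.87), Ndufa13, also known as GRIM-19 (3.66 and 3.71), Ndufa2 (2.75 and 3.59), Ndufa3 (2.52 and 3.32) and Ndufb5 (2.98 and 3.04). These 6 had 10 to 16 overlapping fragments at the summit. The untreated list alone held Ndufa11, a membrane-arm subunit (4.12, −log10 q 4.11, 17 fragments, chr17:56717022-56717324). It also held Ndufab1, the mitochondrial acyl carrier protein (3.89, −log10 q 3.47, 16 fragments), and Ndufa10 (3.43, −log10 q 2.28), which had an R848 peak inside the gene, away from its ends. Ndufc1 and Ndufa7 (2.98 each), Ndufs5 (2.52) and Ndufb7 (2.29) had weaker untreated peaks of q above 0.05. Ndufb6 (3.04, near its 3′ end) was in the R848 list only. The summit of that peak lay 861 bp from Ndufb6, 111 bp from Topors and 151 bp from Smim27. The complex I genes without any gene-end peak were Ndufa1, Ndufa4l2, Ndufa5, Ndufa8, Ndufa9, Ndufa12, Ndufb2, Ndufb3, Ndufb4, Ndufb4b, Ndufb4c, Ndufb8, Ndufb9, Ndufb10, Ndufb11, Ndufc2, Ndufs1, Ndufs3, Ndufs4 and Ndufs6.

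Complex II, succinate dehydrogenase, belongs to both the respiratory chain and the tricarboxylic acid cycle. Its peaks were in the untreated list only and were weak. Sdhb, the iron-sulphur subunit, had a fold of 3.20 (−log10 q 1.75, 13 fragments, chr4:140961286-140961588). Sdha, the flavoprotein, had 2.98 (−log10 q 1.26, 12 fragments) and Sdhc, a membrane anchor, 2.75 (−log10 q 0.831, 11 fragments). Of these, Sdhb alone reached a q of 0.05, and Sdhd, the other anchor, had no peak. The nearest R848 peak lay 4739 bp from an end of Sdha, 20113 bp from Sdhb and 26212 bp from Sdhc. Of 14 tricarboxylic acid cycle genes outside the complex, 10 had an untreated and 7 an R848 peak (28.8% and 24.4% of all genes). The intervals were wide, 41.9 to 91.6% untreated and 23.0 to 77.0% with R848, and the latter holds the value of all genes. Fh1, fumarase, which takes the product of complex II (4.81 and 5.53), Cs, citrate synthase (5.49 and 3.04), Mdh2 (4.58 and 2.76) and Ogdh (3.43 and 4.14) had peaks in both.

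Complex III moves electrons from ubiquinol to cytochrome c. Uqcrq, a small subunit, had a fold of 3.66 in the untreated list (−log10 q 2.85, 15 fragments, chr11:53430487-53431416) and 3.59 in the R848 list (−log10 q 2.07, 12 fragments, chr11:53430509-53431318). Uqcrh, the hinge protein, had 2.98 and 3.32, and a second untreated peak of fold 2.75. Cyc1, cytochrome c1 (2.76, −log10 q 0.581), and Uqcrc2, a core protein (2.49, −log10 q 0.233), had a weak R848 peak alone. Uqcrfs1, the Rieske iron-sulphur protein, and Uqcr10, Uqcr11, Uqcrb and Uqcrc1 had none. Cycs, the somatic cytochrome c that links complexes III and IV, is not a member and had peaks of fold 6.18 and 3.59.

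In complex IV, cytochrome c oxidase, Cox4i1, the widely expressed subunit 4, had 4.12 in the untreated (−log10 q 4.11, 17 fragments, chr8:120667952-120668339) and 3.32 in the R848 list (−log10 q 1.51, 11 fragments, chr8:120668163-120668377). The untreated summit lay 77 bp from Cox4i1, 6 bp from Gm27021 and 61 bp from Emc8. With R848 these distances were 87 bp, 170 bp and 225 bp. Cox8a had 3.43 (14 fragments) and 2.49 (8 fragments). Cox7a2l, which joins complexes III and IV into supercomplexes, had 3.20 (13 fragments) and 2.76 (9 fragments). Cox7c had an R848 peak alone (3.32, −log10 q 1.51, 11 fragments). None of the 7 isoforms known from muscle, lung or testis (Cox4i2, Cox6a2, Cox6b2, Cox7a1, Cox7b2, Cox8b and Cox8c) had any gene-end peak, and the interval for 0 of 7 reaches 41.0%. The 11 other genes had 3 and 4, and Cox5a, Cox5b, Cox6a1, Cox6b1, Cox6c, Cox7a2 and Cox7b, which encode widely expressed subunits, had no gene-end peak. The promoter of Cox5a in the RefSeq promoter table starts 3904 bp from the gene's annotated 5′ end and that of Cox7a2 11569 bp from it. A peak lay over that promoter in both lists at Cox5a and in the untreated list at Cox7a2.

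Complex V had peaks at genes of its catalytic head, its c-ring and its stalk. Atp5b, the catalytic beta subunit, had 2.75 in the untreated list (−log10 q 0.831, 11 fragments, chr10:128083066-128083393) and 3.04 in the R848 list (−log10 q 1.01, 10 fragments, chr10:128083078-128083277). Atp5g1, 1 of 3 genes of the c-ring, had 2.98 (12 fragments) and 3.87 (13 fragments). Atp5g2, another, had an untreated peak only (3.66, −log10 q 2.85, 15 fragments), and the third, Atp5g3, had none. Atp5j (2.52 and 3.59) and Atp5pb (2.98 and 2.49), of the peripheral stalk, and Atp5md, the small subunit DAPIT (2.75 and 3.04), had peaks in both lists. Atp5o, which ties the stalk to the head, had an untreated peak near its 3′ end (2.98) with the summit 966 bp from it, and Atp5e, the epsilon subunit, an untreated peak at its 5′ end (2.75). No gene-end peak was found at Atp5a1, the alpha subunit, Atp5c1, Atp5d, Atp5h, Atp5j2, Atp5k, Atp5l or Atp5mpl, but an untreated peak lay over the promoter of Atp5d in the promoter table, which starts 3577 bp from the annotated 5′ end.

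The assembly factors build complex I and are not part of it. Ndufaf3, which acts in early assembly, had 4.01 in the untreated list (−log10 q 4.68, 20 fragments, chr9:108567397-108567709) and 4.59 in the R848 list (−log10 q 5.47, 19 fragments, chr9:108567297-108567900). Ndufaf4, its partner, and Ndufaf6 had weak untreated peaks (2.52 each), as had Ndufaf2 (2.75), and Ndufaf6 also had an R848 peak inside the gene. Ndufaf8 had an R848 peak only (3.59, −log10 q 2.07, 12 fragments), and Ndufaf1, Ndufaf5 and Ndufaf7 had none. Among 7 other complex I assembly genes, 4 and 3 had a peak (28.8% and 24.4% of all genes). Foxred1 (3.66 and 4.97), Tmem126b (4.12 and 3.59) and Ecsit (3.66 and 3.85) had one in both lists. Of 33 assembly factors of complexes II to V, 13 and 11 had a peak, with 8 in both (28.8%, 24.4% and 17.3% of all genes). The highest folds were at Cox15, of haem A synthesis (7.1 and 8.01), Cox20 (5.95 and 3.87), Lyrm7, a complex III factor (4.09 and 5.63), and Cox14 (4.12 and 4.42). Cox15 thus had higher folds than any member in either list.

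**Figure D2:**
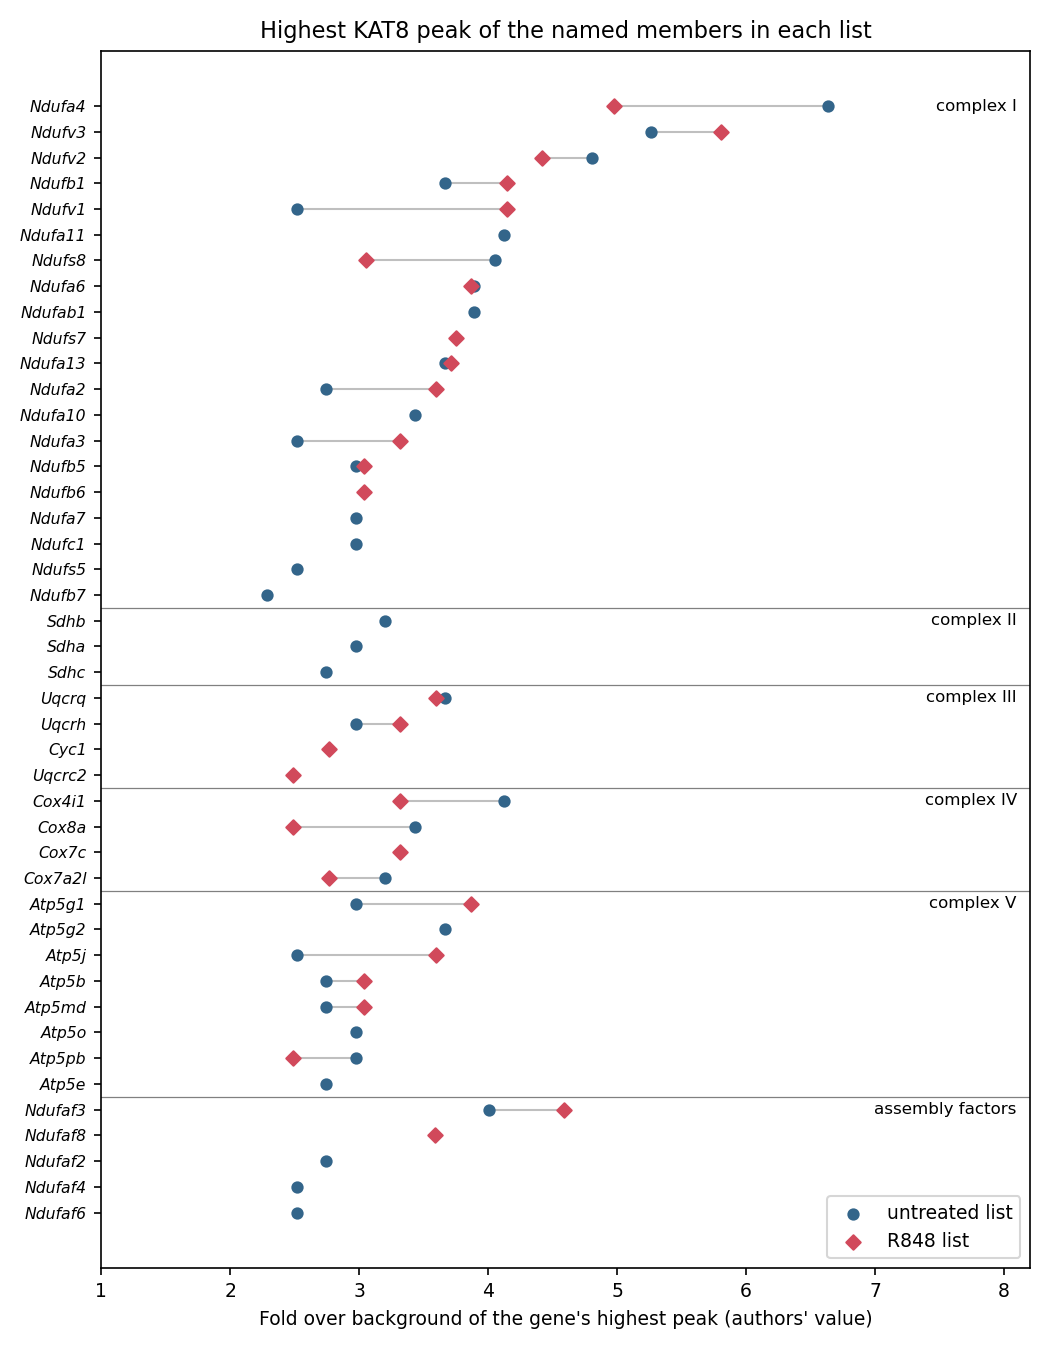
Fold over background of the highest gene-end peak (x axis, the authors' value) for the members with a peak that are named in the text, grouped by complex; blue circles are the untreated list, red diamonds the R848 list, and a grey line joins the values of 1 gene without measuring a change. Ndufa4 (6.64) and Ndufv3 (5.80) stand farthest right.

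Peaks of members were described next by strength. The median of the highest fold was 2.98 over the 38 members with an untreated peak and 3.20 over all 6301 genes with one. In the R848 list both medians were 3.32. A q of 0.05 or less was reached at 17 members in the untreated list (16.7% of all genes) and 19 in the R848 list (15.1% of all genes). As shares of members with a peak these are 44.7% and 65.5%, against 57.9% and 61.8% over all genes with a peak. Members seen in both lists had a median untreated fold of 3.32 and a median R848 fold of 3.59. Those seen in the untreated list only had a median of 2.98 and a highest fold of 4.12, and those seen in the R848 list only 3.04 and 3.75. Of the 17 members with an untreated q of 0.05 or less, 12 had an R848 peak of any strength (70.6%, 44.0 to 89.7), against 78.0% over all such genes. The other 5 were Ndufa11, Ndufab1, Atp5g2, Ndufa10 and Sdhb. Of the 19 with an R848 q of that size, 16 had an untreated peak (84.2%, 60.4 to 96.6), against 83.7% over all such genes. The other 3 were Ndufs7, Ndufaf8 and Cox7c. At Ndufs7, seen in the R848 list only, the closest untreated peak lay 4226 bp from an end of the gene.

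Most peaks of members lay at the start of the gene. The promoter table gave the strand of 78 members. Of these, 31 (39.7%) had an untreated peak within 1000 bp of the 5′ end, where 26.7% of the 17492 genes with an entry had one, and 22 (28.2%) an R848 peak, against 22.2%. Of members with a strand and a gene-end peak, the 5′ end carried it in 31 of 33 (93.9%) in the untreated and 22 of 23 (95.7%) in the R848 list, against 90.5% and 88.9% over all genes. Summits lay a median of 153 bp and 154 bp from the 5′ end. In the untreated list 24 summits lay before it and 7 inside the gene, and in the R848 list 14 and 8. The members closest to the edge of the window were Atp5o, with an untreated peak edge 867 bp from a gene end, and Ndufb6, with an R848 peak edge at 678 bp. The first ones outside were Ndufb10, at 1902 bp and 1916 bp, and Ndufb11 (2003 bp, untreated) and Atp5h (1990 bp, R848).

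**Figure D3:**
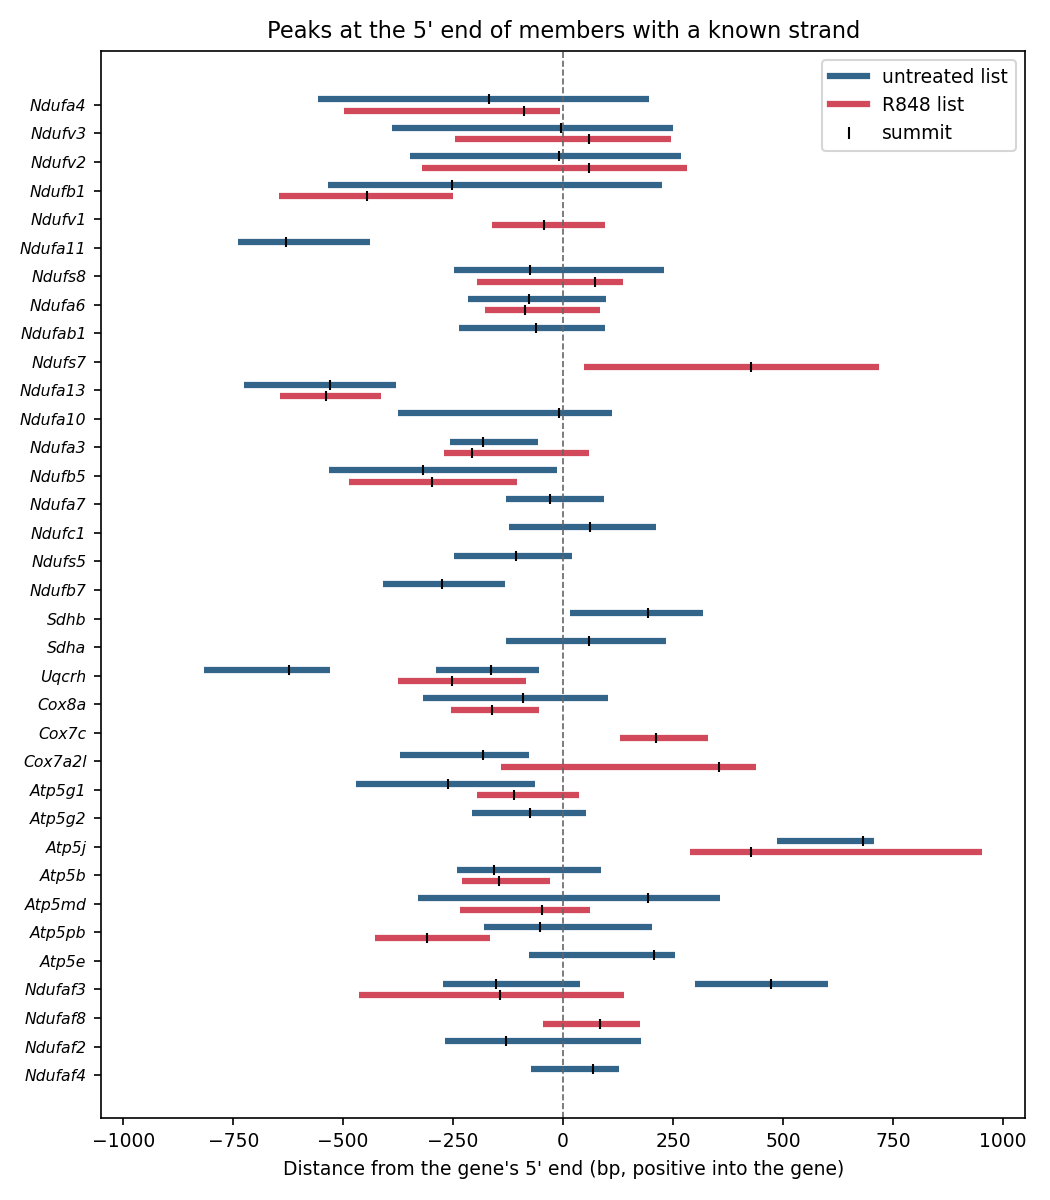
Peaks of the 35 members with a known strand and a peak at the 5′ end in either list, drawn by distance from that end in bp (x axis, positive into the gene); bars are peaks of the untreated (blue) and R848 (red) lists and ticks are summits. Most bars cross or adjoin the 5′ end, while Ndufa11 and Ndufa13 have theirs farther upstream and Atp5j has its own inside the gene.

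Many of these peaks were shared with a neighbouring gene. The highest peak lay within 1000 bp of another protein-coding gene's end at 22 of 38 members (57.9%) in the untreated list and 18 of 29 (62.1%) in the R848 list, against 29.5% in each list over all genes with a peak. At 15 or more of the 25 members sharing their highest peak in either list, the neighbour was on the opposite strand with its 5′ end within 1000 bp. The strand was not known for some of the others, such as Cox4i1, Ndufa2, Sdhc and Uqcrq, so 15 is a minimum. Ndufa4 shared its peaks with Phf14, Ndufv3 with the tRNA methylation gene Wdr4, Ndufaf3 with Dalrd3, Ndufb1 with the mRNA cleavage factor gene Cpsf2 and Uqcrh with Lrrc41. Ndufb5 shared its peaks with Mrpl47, a mitochondrial ribosomal protein gene. Atp5j shared its with Gabpa, which encodes the DNA-binding subunit of GABP. The untreated summit lay 284 bp from Gabpa and 682 bp from Atp5j, and the R848 summit 540 bp and 426 bp. The untreated summit of Ndufa11 lay 567 bp from Vmac and 630 bp from Ndufa11. At Ndufa13 the untreated summit lay 431 bp from Tssk6 and 529 bp from Ndufa13, and the R848 summit 421 bp and 539 bp. Of the 22 shared untreated peaks, 10 had the summit nearer the member and 12 nearer the neighbour, and of the 18 R848 peaks 9 and 9. A peak at such a pair cannot be given to 1 of its genes.

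The share with a peak moved with the presence of a close neighbour. Another protein-coding gene's end lay within 1000 bp of either end of 55 of 97 members (56.7%) and of 24.8% of all genes. Of those 55 members, 25 (45.5%, 32.0 to 59.4) had an untreated and 23 (41.8%, 28.7 to 55.9) an R848 peak. Over all genes with such a neighbour the shares were 45.5% and 38.2%. Of the 42 members without one, 13 (31.0%, 17.6 to 47.1) and 6 (14.3%, 5.43 to 28.5) had a peak, against 23.3% and 19.9% of all such genes. The part of neighbours in the members' counts was not tested. Members also were shorter, with a median length of 7177 bp against 17169 bp. Of the 3 members on the X chromosome (Ndufa1, Ndufb11 and Cox7b) none had a gene-end peak, and of the 966 protein-coding genes of that chromosome 4.66% and 4.14% had one.

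A peak overlapped the 300 bases from 250 before to 50 after the promoter table's start at 31 of 78 members untreated (39.7%, 28.8 to 51.5; 22.0% of all genes with an entry). With R848 it did so at 20 (25.6%, 16.4 to 36.8; 18.4% of all genes). These include Cox5a in both lists and Cox7a2 and Atp5d untreated, which had no gene-end peak, since the table's start lies inside the annotated gene.

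Promoters of members were rich in CpG. Over the same 300 bases, 59 of 78 members (75.6%) had a GC content of at least 50% and an observed-to-expected CpG ratio of at least 0.6, against 45.7% of the 17492 genes. Among these CpG-rich promoters, 28 of 59 members (47.5%, 34.3 to 60.9) had an untreated gene-end peak, and 46.1% of all genes did. In the R848 list 19 (32.2%, 20.6 to 45.6) did, against 39.5% of all genes. Among the other promoters, 5 of 19 members (26.3%, 9.15 to 51.2) and 4 of 19 (21.1%, 6.05 to 45.6) had a peak, against 15.6% and 12.8% of all genes. Within CpG-rich promoters the intervals of the members thus hold the value of all genes in both lists.

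**Figure D4:**
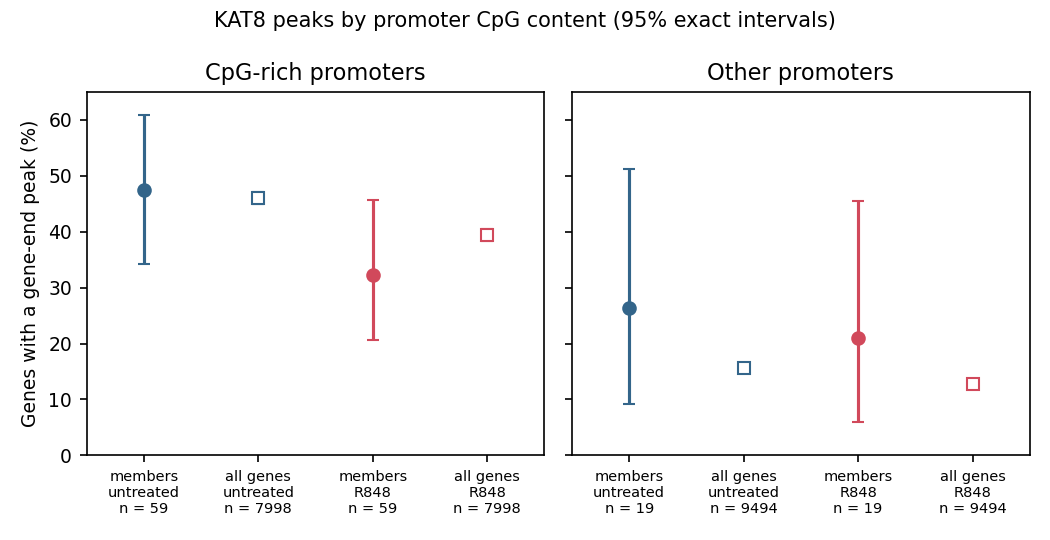
Percent of genes with a gene-end peak (y axis) among CpG-rich promoters (left) and other promoters (right); filled circles are members, open squares all genes, blue the untreated and red the R848 list, and bars are 95% exact binomial intervals, hidden by the symbol for all genes. The members' intervals hold the value of all genes in each of the 4 pairs.

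Motifs of 4 factors were searched on both strands of the 300 bases. The NRF1 motif, GCGCA then any base then GCGC, was in 18 of 78 member promoters (23.1%) and 6.6% of all, the ETS motif CCGGAAG in 18 (23.1%) and 11.9%, the YY1 motif AAGATGGCG in 7 (8.97%) and 1.94%, and the SP1 motif GGGCGG in 35 (44.9%) and 46.3%. Matches of different motifs shared bases in 1 member promoter. Among the 37 members with an entry and a peak in either list, NRF1 was found in 7 (18.9%), ETS in 9 (24.3%), SP1 in 20 (54.1%) and YY1 in 3 (8.11%). Among the 41 with no peak, the counts were 11 (26.8%), 9 (22.0%), 15 (36.6%) and 4 (9.76%), where no peak means no gene-end peak and so includes Cox5a, Cox7a2 and Atp5d. Split instead by a peak over the 300 bases, NRF1 was in 5 of 34 promoters with a peak (14.7%) and 13 of 44 without (29.5%), ETS in 8 and 10, SP1 in 19 and 16, and YY1 in 3 and 4. Of the 19 members with an entry and peaks in both lists, 1 had an NRF1 match (Ndufa6), 4 an ETS, 11 an SP1 and 0 a YY1 match. The motifs were not counted over all genes with peaks in both lists. Over all genes NRF1 was in 10.8% of promoters with a gene-end peak and 4.15% of those without, the reverse order of the members. For YY1 the order over all genes was also the reverse of the members, and for ETS and SP1 it was the same. The members' NRF1 order rests on 7 of 37 and 11 of 41 promoters and was not tested. With CpG-rich promoters alone, 7 of 18 members with an NRF1 match had a peak (38.9%, 17.3 to 64.3), against 62.9% of all such genes. That interval holds the value of all such genes.

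The genes of such factors also had peaks. Of 18 regulators of respiratory chain genes and of mitochondrial DNA, 11 had a peak in each list and 9 in both. Over all genes the shares were 28.8% untreated, 24.4% with R848 and 17.3% in both. Sp1 (7.76 and 6.79), Esrra, a nuclear receptor of mitochondrial genes (6.18 and 6.35), and Yy1 (4.81 and 4.42) had higher folds than most members, and Nrf1 had 4.12 and 2.76. Tfam, which packages mitochondrial DNA, had a weak untreated peak only (2.29). Of 16 electron carrier, ubiquinone synthesis and quinone reductase genes, 7 and 8 had a peak (28.8% and 24.4% of all genes). Among them were Coq2 (4.81 and 6.63), Cycs, Etfdh, an entry point for electrons from fat oxidation (5.49 and 4.97), and Coq9, in the R848 list only (3.87).

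Other housekeeping groups are given for their values. Of 78 mitochondrial ribosomal protein genes, 31 (39.7%) had an untreated and 22 (28.2%) an R848 peak, with 17 in both. Of 51 proteasome genes, taken by a symbol beginning with Psma to Psmg and a digit and so not all subunits, 20 (39.2%) and 10 (19.6%) did. In both lists 7 did. Among all genes 28.8% and 24.4% did, and 17.3% did in both lists. In the R848 list the intervals of the proteasome genes (9.82 to 33.1) and the respiratory chain genes (21.0 to 40.0) both hold 24.4%. Differences between the groups of genes were not tested, since genes are not replicates of a condition.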

How the data were processed

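Each library's deposited data were 1 narrowPeak list. Whether a list was called from 1 sample alone is not given in the sources used here. Per the submitters' processing notes, Bowtie 0.12.8, MACS2 2.2.7.1, DiffBind and mm10 were used, with no role or order; for a control library and the caller's threshold the answer is not given in the sources used here. Names of the R848 peaks carry both time points; the list was taken as the R848 library, as labelled. The columns the authors deposited are a score (10 times −log10 p), a fold over background (a ratio), −log10 p, −log10 q and the summit. Fragments at the summit and their background were computed back from fold and p under a Poisson model, with 1 added to each in the fold.

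Gene ends are those of RefSeq for GRCm38.p6, strand and promoters from its promoter table (78 of 97 members; the first entry of a gene was used). Where a gene had several peaks, its fold is the highest. Interval code (Python 3.11.15, pandas 2.3.3, scipy 1.17.1) was checked against bedtools 2.31.1 and tested on simulated data. Intervals are exact (Clopper-Pearson). With 1 library per group no test was made. Members, gene lists and rules were chosen with earlier results of these data known. Every member with a peak is named, save 1 that is counted but not reported here; of other lists, up to 4 members by falling fold and genes named for their role, chosen after their values were seen. Alternatives were windows of 500 and 3000 bp, the whole gene, q of 0.05, −log10 q of 5, lists of equal length, summits, and stricter overlap.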

Additional observations from a re-analysis of the deposited data

How the results depend on the processing

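No paired analysis was possible because each group had 1 library, which also leaves no replicate to leave out. The main counts were 38 members in the untreated list, 29 in the R848 list, 22 in both, and 40 subunit genes and 5 assembly factors in either. Windows of 500 or 3000 bp, the whole gene, lists of equal length and summits in place of whole peaks kept each count within 1.5 times, but with the whole gene the shares of all genes (49.1% and 44.5%) were above those of members (46 and 34 of 97). With q up to 0.05 in both lists the counts became 17, 19, 10, 24 and 2. The untreated list then no longer had more members than the R848 list. Of all genes 16.7% met this rule untreated, 15.1% with R848, 10.5% in both lists and 21.3% in either. With −log10 q of at least 5 the counts became 4, 3, 2, 4 and 1. The shares of all genes were 5.97% untreated, 4.39% with R848 and 3.37% in both. Peaks overlapping by at least 50% of each left 13 of 97 members in both, against 12.0% of all genes. Of the settings added after the data were seen, the 5′ end alone and peaks over the 300-base promoter kept each count within 1.5 times. Peaks at no other protein-coding gene gave 16, 11, 6, 19 and 2. Of all genes 20.6% had such a peak untreated, 17.5% with R848, 11.5% in both lists and 26.6% in either. Weak peaks set most counts: 9 to 28 overlapping fragments stood at the highest untreated and 8 to 20 at the highest R848 peaks of members.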

Other observations

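Peaks inside members but away from their annotated ends are not among the gene-end peaks counted above. Those of Cox5a in both lists, and of Cox7a2 and Atp5d untreated, lay over the promoter table's start. In the untreated list 8 members had such a peak and no gene-end peak of that list, among them Ndufa12, Ndufs4, Uqcrc1, Cox5a, Cox7a2, Cox7b2 and Atp5d. In the R848 list 5 did: Ndufa10, Ndufaf5, Ndufaf6, Cox5a and Cox7b2. Of the R848 genes, Ndufa10 and Ndufaf6 had an untreated gene-end peak. Anywhere in the gene or within 1000 bp, 46 of 97 members had an untreated and 34 an R848 peak, against 49.1% and 44.5% of all genes. At the gene ends 38 and 29 members did, against 28.8% and 24.4%. Peaks away from the ends alone were thus rarer among members than over all genes, and the part of gene length was not tested. Cox7b2, a testis isoform of complex IV in a gene of 105383 bp, had 3 peaks inside it in each list.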
